A study of Canis lupus familiaris with 25 samples.

Results

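The amino acid transporters described here are the genes of 7 solute carrier families whose members carry amino acids or close relatives of amino acids across membranes, or serve as a partner of such a carrier. They were chosen by symbol from the count table, as every gene named SLC1A, SLC3A, SLC6A, SLC7A, SLC36A, SLC38A or SLC43A followed by a number. This rule uses no measured value, but it was set with earlier results of these data known. The rule found 54 of the 24532 genes of the table, namely 7 of SLC1A, 2 of SLC3A, 17 of SLC6A, 12 of SLC7A, 3 of SLC36A, 10 of SLC38A and 3 of SLC43A.

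Cells take up amino acids through carriers that differ in what they move and in what drives them. SLC1A and SLC38A carriers couple uptake to sodium, and some but not all SLC36A carriers couple it to protons. Several SLC7A light chains exchange one amino acid for another and reach the cell surface only when bound to the heavy chain SLC3A2. Some carriers sit in the lysosome, where they take part in the sensing of amino acids by the growth regulator mTORC1. Many are targets of ATF4, the transcription factor of the integrated stress response.

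The libraries were made with QuantSeq 3′, which reads polyadenylated RNA near its 3′ end, from archived formalin-fixed, paraffin-embedded (FFPE) tumors of privately owned dogs. There were 10 hepatoid gland adenomas (HGA), a benign tumor of perianal glands, 11 primary adenocarcinomas of the apocrine glands of the anal sac (AGASAC), which are malignant, and 4 sublumbar lymph node metastases of the dogs with AGASAC 1 to 4. No experimental treatment is named for any group, tissue next to the tumor was removed by the study, and each sample was bulk tissue of mixed cells. The comparison of tumor types asked how a pair of glandular tumors from almost the same site differ, and the metastases allowed a comparison within dogs.

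The dogs with HGA were 8 to 14 years old and 4 of 10 were neutered, those with primary AGASAC were 8 to 12.5 years old and 9 of 11 were neutered, and those with metastases were 8 to 10 years old and 3 of 4 were neutered. The share of RNA fragments over the DV200 length limit was 70.5 to 92.7% in HGA, 70.2 to 84.4% in AGASAC and 71.8 to 82.9% in the metastases. The total count over genes was 1562347 to 6389555 per sample in HGA, 2581453 to 4218340 in AGASAC and 2857541 to 3289546 in the metastases. At 0 counts the true level may still be as high as 3 counts, or 0.543 to 1.84 CPM (counts scaled to library size) depending on the sample, and this limit covers counting error only. The summed markers of HGA (12 of 12 found) lay between 5368 and 17958 CPM in HGA, between 461 and 2687 CPM in AGASAC and between 563 and 1543 CPM in the metastases, with KRT79 at 0 in AGASAC and KRT15, CIDEA, AWAT2 and ELOVL3 at 0 in the metastases. The summed glandular markers of AGASAC (9 of 10 found, none at 0 in any group) lay between 426 and 743 CPM in HGA, 6572 and 11605 CPM in AGASAC and 6070 and 12776 CPM in the metastases. Both lists were chosen with earlier results of these data known, so the distance between their sums is not a test of the labels. Of the 9 tested HGA markers 6 were called, all higher in HGA, while FADS6 and PLIN2, named after their values were seen, had higher means in AGASAC (494 against 229 CPM and 573 against 293 CPM) and did not pass the test.

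Summed marker levels of other cell types and of growth were compared as well. Summed plasma cell markers (7 of 7 found, none at 0) were 41.2 to 169 CPM in HGA, 329 to 872 CPM in AGASAC and 560 to 731 CPM in the metastases, and summed proliferation markers (10 of 10 found, none at 0) were 67.3 to 574 CPM in HGA with a median of 99.1, 229 to 605 CPM in AGASAC with a median of 375, and 377 to 558 CPM in the metastases. Most of the plasma cell sum in AGASAC was XBP1, a transcription factor that is also active in secretory epithelium, with a mean of 457 CPM (SD 182) against 31.3 CPM (SD 9.69) in HGA. It was the only one of 3 tested plasma cell markers that was called, and JCHAIN and PRDM1 were not. Of 9 tested proliferation markers, 2 were called and lower in HGA. Summed skeletal muscle markers (11 of 11 found) were 2.55 to 36.4 CPM in HGA with MYH1 and MYL1 at 0, 5.59 to 1207 CPM in AGASAC with none at 0, and 4.82 to 9.58 CPM in the metastases with MYH1, MYH2, TNNT3, CKM and MYL1 at 0. The part of these markers in the transporter results was not tested. In bulk samples, fewer cells of a type and less RNA per cell cannot be told apart.

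Of the 54 transporters, 25 passed the filter on low counts in the comparison of 10 HGA with 11 primary AGASAC, and 29 did not. No transporter was at 0 counts in all 25 samples, but 17 of the 29 had a mean under 1 CPM and the median of their means was 0.935 CPM. The summed level of the 54 transporters was 853 to 3797 CPM in HGA with a median of 2465, 571 to 2970 CPM in AGASAC with a median of 1223, and 997 to 1508 CPM in the metastases with a median of 1090. These ranges overlapped.

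Between HGA and primary AGASAC, 12 of the 25 tested transporters were called, that is, they had an adjusted p of at most 0.05 by the quasi-likelihood test of edgeR (Benjamini-Yekutieli, over all tested genes) and a fold change (log2FC, HGA over AGASAC) of at most −1 or at least 1. Of all 12070 tested genes 25.0% were called, against 48.0% of the tested transporters. Of the 12, 6 were higher in HGA (12.6% of all tested genes) and 6 were lower (12.4% of all). The HGA and AGASAC samples did not overlap in 5 of the 25, against 9.13% of all tested genes. The median log2FC was 0.42 over the tested transporters and −0.03 over all tested genes. A transporter that is high in a single group can pass the filter through that group alone, so these shares describe the 25 and not the 54.

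The transporters higher in HGA were the heavy chain SLC3A2 with its light chain SLC7A6, the glutamine carrier SLC1A5, the proton-coupled SLC36A1, the creatine carrier SLC6A8 and the lysosomal SLC38A7. Those lower in HGA were the sodium-coupled SLC38A1, SLC38A2 and SLC38A4, with SLC38A6, SLC36A4 and the cationic amino acid carrier SLC7A1. In the SLC38A family 4 of the 7 tested members were lower in HGA, 1 was higher and 2 were not called.

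**Figure D1:**
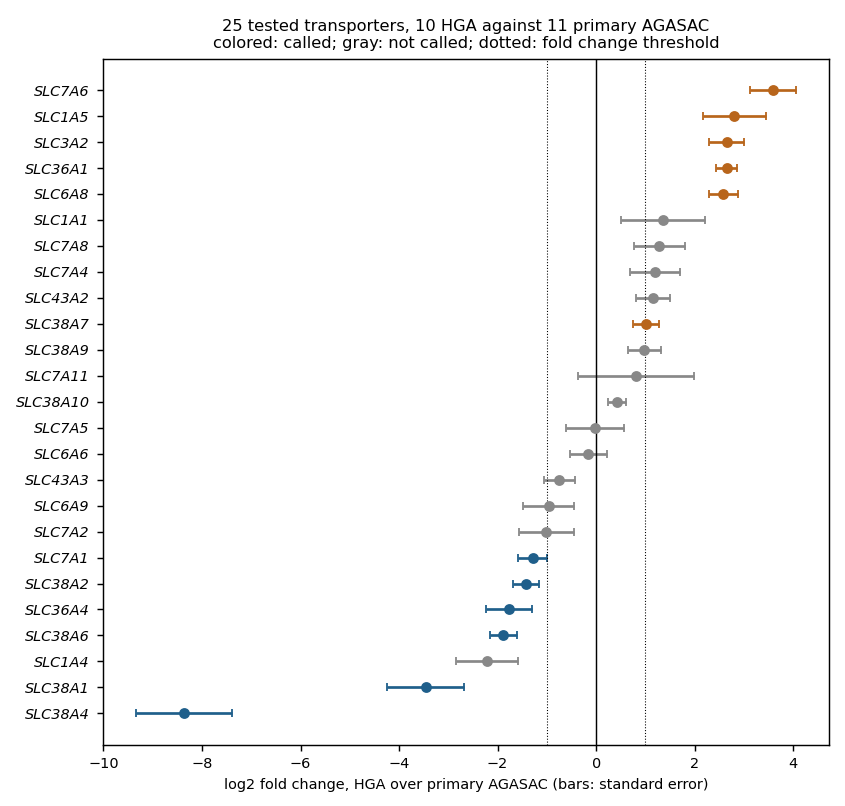
Log2FC of HGA over primary AGASAC (x axis) for the 25 tested transporters (y axis). Called ones are in orange (higher in HGA) or blue (lower in HGA) and the others in gray. Bars are the standard error, worked back from the test as the absolute log2FC over the square root of its F statistic. The called values run from −8.37 for SLC38A4 to 3.59 for SLC7A6.

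SLC3A2, the CD98 heavy chain that carries its light chains to the surface, had 111 to 1008 CPM in HGA with a median of 359, and 20.8 to 127 CPM in AGASAC with a median of 68.5. The 4 metastases had 56.4, 34.0, 33.5 and 59.4 CPM. The lowest HGA, HGA 10, fell among the highest AGASAC, and the other 9 HGA lay above every AGASAC. The log2FC was 2.65 (standard error 0.36, adjusted p = 1.75e-05).

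SLC7A6, a light chain that exchanges cationic for neutral amino acids, had 28.3 to 164 CPM in HGA with a median of 68.9, and 0.904 to 20.0 CPM in AGASAC with a median of 4.45. The metastases had 4.87, 7.43, 5.15 and 6.07 CPM. All HGA were above all AGASAC and all metastases, and the log2FC was 3.59 (standard error 0.47, adjusted p = 1.26e-05). Of the 4 tested light chains of SLC3A2, SLC7A6 was called and SLC7A5, SLC7A8 and SLC7A11 were not.

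SLC7A8, the light chain LAT2, had 22.8 to 647 CPM in HGA with a median of 281, 9.80 to 312 CPM in AGASAC with a median of 101, and 84.0, 5.57, 45.0 and 126 CPM in the metastases. Its log2FC of 1.28 (standard error 0.51) did not pass the test (adjusted p = 0.422), and the groups overlapped. SLC7A5, the light chain LAT1 for large neutral amino acids, had medians of 24.7 CPM in HGA and 14.6 CPM in AGASAC, with ranges of 6.78 to 55.7 and 2.45 to 120 CPM. Its log2FC was −0.03 with a standard error of 0.59.

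SLC7A11, the cystine and glutamate exchanger xCT, ranged widely within both tumor types. HGA 1 to 10 had 119, 38.0, 730, 1865, 914, 1373, 801, 151, 297 and 0 CPM, with HGA 4 highest and HGA 10 at 0. AGASAC 1 to 11 had 242, 1535, 38.8, 2151, 33.3, 23.4, 7.34, 8.71, 0, 3.26 and 4.37 CPM, so AGASAC 2 and 4 lay among or above the highest HGA and AGASAC 6 to 11 were all under 24 CPM. The log2FC of 0.80 had a standard error of 1.18, and the adjusted p was 1. The low samples went with the naming series of the read files. The 8 samples of 1 series, AGASAC 5 to 11 and HGA 10, had 0 to 33.3 CPM (median 5.86), and the 16 samples of the other series, metastases included, had 28.8 to 1865 CPM (median 299), while the series of AGASAC 4 was not known here. Among 9 HGA and 3 AGASAC of the latter series the log2FC was 0.23 (standard error 1.09). As 1 series holds a single HGA, the series and the spread within AGASAC cannot be told apart.

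SLC7A7, another light chain of SLC3A2, and SLC3A1, the heavy chain of the cystine carrier in kidney and gut, were low. SLC7A7 had a median of 2.09 CPM in HGA and 1.94 CPM in AGASAC, and SLC3A1 a median of 3.68 and 1.46 CPM. Neither passed the filter in this comparison.

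**Figure D2:**
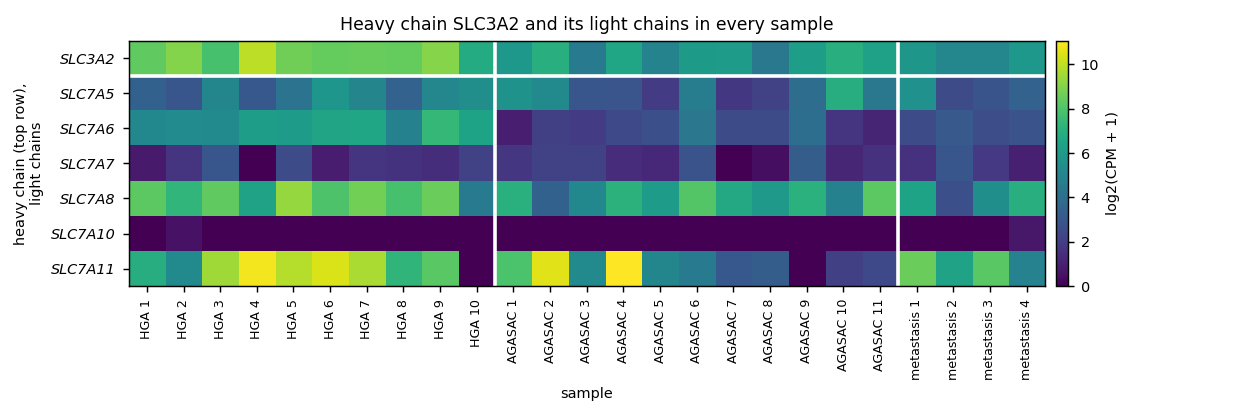
Level on the log2(CPM + 1) scale (color) of the heavy chain SLC3A2 (top row) and of 6 light chains (rows) in each of the 25 samples (columns, white lines between HGA, AGASAC and metastases). SLC3A2 and SLC7A6 are brighter in the HGA columns, SLC7A11 is bright in some samples of each tumor type, and SLC7A10 is near 0 in all 25.

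SLC7A1, the main carrier of arginine and lysine in many cells, had 6.98 to 44.4 CPM in HGA with a median of 13.8, and 19.5 to 67.3 CPM in AGASAC with a median of 50.3. The metastases had 48.0, 24.1, 34.7 and 47.0 CPM. The log2FC was −1.29 (standard error 0.29, adjusted p = 0.00882), with 3 HGA inside the range of AGASAC. The other carriers of cationic amino acids, SLC7A2 and SLC7A3, had higher medians in AGASAC as well, at 13.6 against 7.68 CPM for SLC7A2 and 2.41 against 0.756 CPM for SLC7A3, but SLC7A2 did not pass the test (log2FC −1.01, adjusted p = 1) and SLC7A3 did not pass the filter. SLC7A4, a relative of these carriers with no established substrate, had medians of 15.6 CPM in HGA and 4.51 CPM in AGASAC and did not pass the test either (log2FC 1.19, adjusted p = 0.518).

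SLC1A5, the glutamine and neutral amino acid carrier ASCT2, had 150 to 584 CPM in HGA with a median of 397, and 1.21 to 136 CPM in AGASAC with a median of 24.5. The metastases had 3.57, 9.55, 8.04 and 94.6 CPM. All HGA were above all AGASAC, and AGASAC itself was spread widely, with AGASAC 6, 9, 10 and 11 between 116 and 136 CPM and AGASAC 1, 2, 3, 5 and 8 under 10 CPM. The log2FC was 2.80 (standard error 0.64, adjusted p = 0.0101). The call of SLC1A5 was lost in 3 of 38 alternatives, within extraction batches 5 and 6 and in the neutered dogs alone. AGASAC 6, 9, 10 and 11 were of the read-file series of HGA 10 (164 CPM), as were AGASAC 5, 7 and 8. AGASAC 1, 2 and 3 were of the other series. The part of the series in this spread was not tested.

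SLC1A4, the neutral amino acid carrier ASCT1, had values in the other direction, with 0 to 18.9 CPM in HGA (median 1.71) and 3.92 to 26.1 CPM in AGASAC (median 17.1). It did not pass the test, at a log2FC of −2.22 (standard error 0.63, adjusted p = 0.0589), and DESeq2 called it (adjusted p = 0.00950). SLC1A1, a glutamate carrier, was not called (log2FC 1.36, adjusted p = 1). SLC1A3 did not pass the filter. It had medians of 4.77 CPM in HGA and 0 CPM in AGASAC, and DESeq2 called it (log2FC 3.72, adjusted p = 0.00193). SLC1A4, SLC1A1 and SLC1A3 were chosen for naming after their values were seen.

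SLC36A1, the proton-coupled carrier of small amino acids in lysosomes and at the surface, had 36.4 to 123 CPM in HGA with a median of 72.8, and 8.14 to 16.5 CPM in AGASAC with a median of 10.7. The metastases had 3.57, 9.55, 8.04 and 7.67 CPM. All HGA were above all AGASAC and all metastases, and the log2FC was 2.64 with a standard error of 0.21 (adjusted p = 7.69e-09), the smallest standard error among the 12 called transporters.

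SLC36A2, a proton-coupled carrier of proline and glycine, had 2.88 to 205 CPM in HGA with a median of 66.8. HGA 8 and HGA 10 had 2.88 and 6.45 CPM, and the other 8 HGA had 54.1 CPM or more. It had 11 counts in all 11 AGASAC together, in AGASAC 6 (2.76 CPM) and AGASAC 11 (0.729 CPM), and 0 counts in the 4 metastases. It did not pass the filter in the comparison with AGASAC. In edgeR without a filter its log2FC was 7.72 (standard error 0.84, adjusted p = 4.33e-06), and in DESeq2 it was 7.90. SLC36A4, a carrier of proline and tryptophan, went the other way, with 0 to 9.70 CPM in HGA (median 4.09) and 4.37 to 18.8 CPM in AGASAC (median 15.4), a log2FC of −1.77 (standard error 0.48) and an adjusted p of 0.0369. Its call was lost in 21 of 38 alternatives, among them leaving out any of AGASAC 1, 3, 4, 5, 6, 8, 9 and 10 or of HGA 1, 2, 4, 6, 7 and 8, with a log2FC of −2.00 to −1.62 and an adjusted p of up to 0.0854 when a sample was left out.

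SLC38A4, a sodium-coupled carrier known from liver and placenta, had the largest difference of the tested transporters. It had 0 to 0.822 CPM in HGA, with 6 counts in all 10 HGA together and at most 3 in a sample, and 0 to 239 CPM in AGASAC with a median of 70.5. The metastases had 231, 190, 138 and 93.9 CPM. AGASAC 8 had 0 counts, within the range of HGA, and the other 10 AGASAC lay above every HGA. The log2FC was −8.37 (standard error 0.98, adjusted p = 3.41e-06) and rests on the few counts in HGA. SLC38A4 passed the filter on low counts through AGASAC alone, and it is among the 6 transporters called lower in HGA.

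SLC38A1 and SLC38A2, carriers of glutamine and alanine, were also lower in HGA. SLC38A1 had 0 to 19.7 CPM in HGA (median 5.24) and 5.21 to 335 CPM in AGASAC (median 60.8), with −3.46 as the log2FC (standard error 0.78, adjusted p = 0.00873), and AGASAC 3, 4, 5, 8 and 11 fell inside the range of HGA. Its call was lost in 7 of 38 alternatives, among them extraction batch (adjusted p = 0.186) or neutering (adjusted p = 0.362) as a covariate and the neutered dogs alone. SLC38A2 had 19.1 to 99.4 CPM in HGA (median 68.2) and 89.1 to 296 CPM in AGASAC (median 170), with −1.43 as the log2FC (standard error 0.26, adjusted p = 9.58e-04). In SLC38A2 2 samples of each tumor lay in the range of the other. SLC38A1 and SLC38A2 are neighbors in the gene order of the RefSeq assembly UU_Cfam_GSD_1.0, SLC38A4 follows SLC38A2 with 1 protein-coding gene between them, and SLC36A1 and SLC36A2 are neighbors too. Whether reads of neighbors were mixed by the extension of 3′ ends in the counting was not tested.

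SLC38A6, a less studied member of the family, had 3.29 to 15.1 CPM in HGA with a median of 8.02, and 17.5 to 49.3 CPM in AGASAC with a median of 32.4. The metastases had 30.8, 38.5, 39.9 and 13.7 CPM. All HGA were below all AGASAC, and the log2FC was −1.88 (standard error 0.28, adjusted p = 5.62e-05).

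SLC38A7, a lysosomal carrier of glutamine and asparagine, had 6.76 to 26.7 CPM in HGA (median 12.6) and 3.15 to 11.9 CPM in AGASAC (median 7.34). Its log2FC of 1.00 (standard error 0.26, adjusted p = 0.0320) lay at the threshold, and the call was lost in 27 of 39 alternatives, DESeq2 and both other normalizations included. Leaving out AGASAC 4, 5, 6, 7, 8, 9 or 11 or HGA 5, 6, 9 or 10 ended the call, at a log2FC of 0.85 to 1.09 over all samples left out. SLC38A9, the arginine sensor of the lysosome, had medians of 7.18 and 3.15 CPM and did not pass the test (log2FC 0.98, adjusted p = 0.178), and it was chosen for naming after its values were seen. SLC38A10, the member of the family with 33.2 to 154 CPM in HGA and 50.9 to 91.5 CPM in AGASAC, was not called (log2FC 0.42, adjusted p = 0.646).

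SLC6A8, the creatine carrier, had 11.2 to 68.2 CPM in HGA with a median of 31.9, and 1.38 to 8.50 CPM in AGASAC with a median of 4.87. The metastases had 5.19, 10.6, 4.50 and 6.07 CPM. All HGA were above all AGASAC and all metastases, and the log2FC was 2.58 (standard error 0.30, adjusted p = 1.88e-06).

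The SLC6A family holds carriers of neurotransmitters, taurine, creatine and glycine, and 14 of its 17 members did not pass the filter. SLC6A6, the taurine carrier, had medians of 31.2 CPM in HGA and 48.2 CPM in AGASAC (log2FC −0.16, standard error 0.38). SLC6A9, a glycine carrier, had medians of 13.6 and 31.5 CPM (log2FC −0.97, adjusted p = 1). SLC6A4, the serotonin carrier, and SLC6A13, a carrier of GABA and taurine, both named after their values were seen, had 0 counts in all AGASAC and all metastases. SLC6A4 had 156 counts in HGA, with 49.8 CPM in HGA 4, 9.76 CPM or less in the other 9 HGA and 0 in HGA 10, and its level over the pooled counts of the 10 HGA was at least 65.5-fold higher than the limit of 3 counts over the AGASAC group. HGA 4 held 81 of these counts, and without it the level was at least 33.4-fold higher. SLC6A13 had 86 counts in HGA, 10.4 CPM at most, and its pooled level was at least 36.1-fold higher in HGA, or 28.7-fold without HGA 2, which held 23 of the counts. Both had adjusted p-values of 9.33e-08 and 2.66e-07 in DESeq2, which was run without this filter.

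SLC43A2, a carrier of large neutral amino acids named after its values were seen, had medians of 17.4 CPM in HGA and 6.53 CPM in AGASAC and an adjusted p of 0.0838 (log2FC 1.16). DESeq2 called SLC43A2 (adjusted p = 0.0472), as did the edgeR test with Benjamini-Hochberg adjustment (adjusted p = 0.00840). SLC43A3, a relative that carries purine bases, had medians of 21.3 and 41.3 CPM and an adjusted p of 0.565 (log2FC −0.75).

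The 12 called transporters kept their direction in every restriction that separates batches. Each restriction was a subset of the samples that gave the calls, so a kept direction is not separate support. The share of all called genes that kept theirs was not computed. At least 2 samples of each tumor were present in RNA extraction batches 5, 6 and 8, in each of which 12 of 12 kept their direction, while 2, 2 and 2 of them still passed the test with 5 or 6 samples each. In the naming series of the read files that held 9 HGA and 3 AGASAC, 12 of 12 kept their direction and 9 passed, and among neutered dogs 12 of 12 kept it and 6 passed. With extraction batch or neutering as a covariate 10 of 12 passed, and SLC38A1 and SLC38A7 lost their calls under each. Without AGASAC 2, 4 and 5, the primary tumors with the highest skeletal muscle sums, 10 transporters were called, and without HGA 4 and 10, the adenomas with the highest proliferation sums, 13 were called.

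Of HGA 10, the adenoma with the lowest sum of HGA markers (5368 CPM) and the highest sum of proliferation markers (574 CPM), the values of SLC3A2 and SLC6A8 were the lowest of all HGA, as were those of SLC7A8, SLC7A4 and SLC7A11. SLC1A5 had 164 CPM there, and SLC7A6 84.7 CPM. In the other 4 of the 6 called transporters that were higher in HGA, another adenoma was lowest. HGA 10 was also the only HGA of its read-file series and the only sample of extraction batch 9, and the part of either was not tested.

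No transporter passed the test between the metastases and the primary tumors of the same dogs. In the 4 metastases and AGASAC 1 to 4, 26 transporters were tested. By the same edgeR test and adjustment 0 were called, as were 0% of the 12629 tested genes. DESeq2 called 0 transporters as well. Neither test used the pairing by dog, and edgeR values with the dog as a block are given further below. At an unadjusted p under 0.05 there was 1 transporter, against 1.08% of all tested genes, and 1 transporter did not overlap between the groups, against 1.14% of all. The median log2FC (metastasis over primary tumor) was −0.08 over the tested transporters and 0.00 over all genes, with 9 transporters higher and 17 lower in the metastases. In simulated counts of 4 against 4 samples, tested by the same model without the dog as a block, edgeR called 14 of 185 genes changed by a log2FC of 2 and 163 of 188 changed by 4. The model with the block was not simulated.

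SLC7A6 had 0.904, 3.27, 2.97 and 4.45 CPM in the primary tumors and 4.87, 7.43, 5.15 and 6.07 CPM in the metastases. The metastasis was higher in 4 of 4 dogs and the groups did not overlap, with a log2FC of 1.01 (standard error 0.52) and an adjusted p of 1. These values of SLC7A6 rest on 3, 10, 10 and 16 counts in the primary tumors and 15, 28, 16 and 19 counts in the metastases. Metastasis 1 lay close to AGASAC 4, and all 4 metastases lay within the 0.904 to 20.0 CPM of the 11 primary AGASAC. SLC7A4 had 4.82, 3.27, 4.45 and 4.45 CPM in the primary tumors and 9.08, 3.98, 14.2 and 11.5 CPM in the metastases, also higher in 4 of 4 dogs, with a log2FC of 1.17 (standard error 0.44), an unadjusted p of 0.0256 and an adjusted p of 1 by edgeR's quasi-likelihood test.

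Of the 26 tested transporters, 8 had the same direction in 4 of 4 dogs, against 12.4% of all 12629 tested genes. SLC1A4, SLC1A5, SLC38A9, SLC7A4 and SLC7A6 were higher and SLC36A1, SLC38A10 and SLC6A6 were lower in each metastasis than in its primary tumor. Some of these differences were near ties. SLC38A9 in dog 3 had 4.45 CPM (15 counts) in the primary tumor and 4.50 CPM (14 counts) in the metastasis. SLC1A4 in dog 4 had 17.8 CPM (64 counts) and 18.2 CPM (57 counts). SLC1A5 had 1.21, 8.17, 5.34 and 24.5 CPM in the primary tumors and 3.57, 9.55, 8.04 and 94.6 CPM in the metastases, and the 4 dogs had the same order in both tissues, with dog 4 highest. SLC6A6 had 22.6, 56.2, 25.2 and 50.0 CPM in the primary tumors and 17.8, 30.5, 15.8 and 30.0 CPM in the metastases. With the dog as a block in edgeR, the unadjusted p was 0.00741 for SLC6A6, 0.0148 for SLC1A5 and 0.0251 for SLC7A4, and the adjusted p was 1 for each. These 3 of the 26 tested transporters were under 0.05 with the block, beside 470 of all 12629 tested genes.

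SLC7A11 moved in different directions between dogs, from 242 to 368 CPM in dog 1, 1535 to 82.5 CPM in dog 2, 38.8 to 300 CPM in dog 3 and 2151 to 28.8 CPM in dog 4. SLC38A4 had 239, 109, 175 and 12.8 CPM in the primary tumors and 231, 190, 138 and 93.9 CPM in the metastases, higher in 2 of 4 dogs. SLC1A1 had 181 CPM in the metastasis of dog 4 and at most 2.25 CPM in the other 3 metastases, beside 8.89 CPM in the primary tumor of dog 4. Markers of other cells moved within dogs too. Summed T cell markers (10 of 10 found, none at 0) were 30.4, 29.1, 27.0 and 45.0 CPM in AGASAC 1 to 4 and 51.9, 54.1, 78.2 and 53.0 CPM in their metastases, higher in 4 of 4 dogs with no overlap. Summed B cell markers (9 of 10 found, none at 0) were 46.1, 31.4, 22.2 and 32.0 CPM in these primary tumors and 51.3, 32.1, 36.3 and 37.7 CPM in the metastases, also higher in 4 of 4 dogs. The sums of skeletal muscle markers, 38.3, 752, 26.7 and 606 CPM against 7.79, 6.90, 4.82 and 9.58 CPM, were lower in 4 of 4 metastases. Their part in the differences within dogs was not tested.

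**Figure D3:**
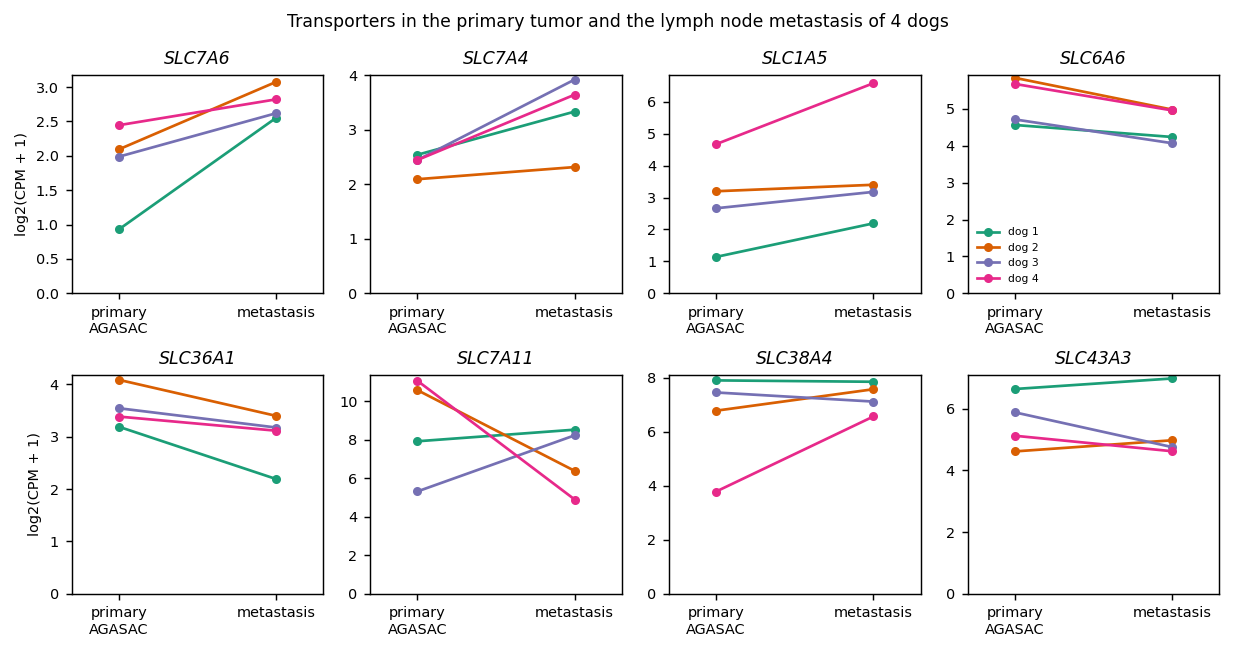
Level on the log2(CPM + 1) scale (y axis) of 8 transporters in the primary tumor and the metastasis (x axis) of each of 4 dogs (colored lines). Lines rise in all dogs for SLC7A6, SLC7A4 and SLC1A5 and fall in all for SLC6A6 and SLC36A1, while those of SLC7A11, SLC38A4 and SLC43A3 go both ways.

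The metastases were also set against the same 10 HGA. As this comparison shares its HGA with the first, its values stand beside those of the first and are not a second, separate finding. Of the 30 transporters that passed the filter here, 6 were higher in HGA, against 8.38% of all 13195 tested genes, and 3 were lower, against 7.66% of all. The groups did not overlap in 10 of the 30, against 16.1% of all tested genes. The median log2FC (HGA over metastasis) was 0.75 over the tested transporters, also with SLC36A2 and SLC6A13 at their lower bounds, and 0.02 over all. SLC36A2, SLC6A13, SLC3A1 and SLC1A3 passed the filter here through HGA alone and were not tested against AGASAC. Their log2FC of 3.13 or more raises the median, and SLC36A2 is among the 6 calls. In the other direction, SLC38A4 passed the filter through the metastases alone and is among the 3 calls lower in HGA. These shares thus describe the 30 and not the 54.

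The log2FC of SLC3A2 was 3.24 against the metastases and 2.65 against the primary tumors, that of SLC7A6 3.60 and 3.59, that of SLC36A1 3.31 and 2.64, and that of SLC6A8 2.35 and 2.58. For SLC38A4 it was −9.34 and −8.37, for SLC38A2 −1.57 and −1.43, and for SLC38A6 −1.82 and −1.88. These 7 transporters and SLC1A5 were called in both comparisons, while SLC36A4, SLC38A1, SLC38A7 and SLC7A1 were called against the primary tumors and not against the metastases. Whether the differences from HGA were unequal between the primary tumors and the metastases was not tested.

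The log2FC of SLC1A5 was 3.71 (standard error 0.79, adjusted p = 0.0190 by edgeR's quasi-likelihood test) against the metastases. Without metastasis 4, which had 94.6 CPM, it was 5.74, and without metastasis 2 or 3 its call was lost (adjusted p of up to 0.0848 when a sample was left out). The call of SLC38A6 was lost without metastasis 1, 2 or 3 and without HGA 3 or 6, with an adjusted p of up to 0.146 and a log2FC of −2.06 to −1.66. SLC36A2 was called against the metastases, where it had 0 counts, and was not tested against the primary tumors because of the filter. Its level over the pooled counts of the 10 HGA was at least 372-fold higher than the limit of 3 counts over the 4 metastases (adjusted p = 0.00267), and at least 263-fold without HGA 6, which held 1006 of its counts. Those of SLC6A4 and SLC6A13 were at least 24.1-fold and 13.3-fold higher, or 12.3-fold without HGA 4 and 10.5-fold without HGA 2.

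Genes that work with the transporters were compared as 4 lists of enzymes, sensors and other carriers between HGA and primary AGASAC. Of 35 tested enzymes of the transported amino acids, 13 were higher and 6 lower in HGA, which is 37.1% and 17.1% against 12.6% and 12.4% of all tested genes, with a median log2FC of 0.30 against −0.03 over all. PSAT1, an enzyme of serine synthesis, had a mean of 281 CPM (SD 146, n = 10) in HGA and 23.7 CPM (SD 7.60, n = 11) in AGASAC, with a log2FC of 3.61 (adjusted p = 4.49e-09 by edgeR's quasi-likelihood test). GPT, alanine aminotransferase, was higher in HGA by a log2FC of 3.22. KYNU, an enzyme of tryptophan breakdown, had a mean of 0.960 CPM (SD 1.08) in HGA and 501 CPM (SD 590) in AGASAC, with a log2FC of −8.96 (adjusted p = 6.63e-05), and ODC1, which makes the polyamine putrescine from ornithine, had a log2FC of −3.55. GLUL, glutamine synthetase, which was named after its value was seen, had a mean of 126 CPM (SD 37.2) in HGA and 1210 CPM (SD 822) in AGASAC, with a log2FC of −3.24 (adjusted p = 1.91e-07).

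Of 27 tested genes of the integrated stress response and ATF4 targets, 7 were higher and 5 lower in HGA (25.9% and 18.5%, against the same 12.6% and 12.4% of all tested genes), and the median log2FC of −0.03 was that of all tested genes. PSAT1 and CEBPB, a transcription factor (log2FC 3.04), had the largest rises. Among the 7, PSAT1, PHGDH, PSPH and SHMT2 are also in the enzyme list, so the rises of these lists are not separate. ATF4 itself, named after its value was seen, had a log2FC of −0.75 and was not called. NUPR1, a stress-induced chromatin protein (log2FC −2.61), and MTHFD2, a mitochondrial enzyme of folate metabolism (log2FC −2.22), had the largest falls.

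Of 40 tested genes of amino acid sensing by mTORC1, 4 were higher and 2 lower in HGA, with a median log2FC of 0.14. These were 10.0% and 5.00%, below the 12.6% and 12.4% of all tested genes. DEPDC5, a subunit of the GATOR1 complex that restrains mTORC1, had a log2FC of 3.23 (adjusted p = 3.93e-08) and SESN1, a sestrin, one of 2.72. SESN3, another sestrin, had a log2FC of −2.53, and CASTOR2, a relative of an arginine sensor, one of −1.06. Of 13 tested amino acid and peptide carriers outside the 7 families, 3 were higher and 4 lower (23.1% and 30.8%, against 12.6% and 12.4% of all), with a median log2FC of −0.10. SLC25A13, a mitochondrial aspartate and glutamate carrier, had a log2FC of 2.31 and SLC25A39, a mitochondrial glutathione carrier, one of 1.07. SLC25A12, another mitochondrial aspartate and glutamate carrier, named after its value was seen, was called in the other direction, with a log2FC of −1.34. SLC25A18, a mitochondrial glutamate carrier, had a log2FC of −3.49 and SLC16A10, a carrier of aromatic amino acids, one of −3.21. Of these 4 lists, the median of the enzymes lay farthest from that of all tested genes.

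**Figure D4:**
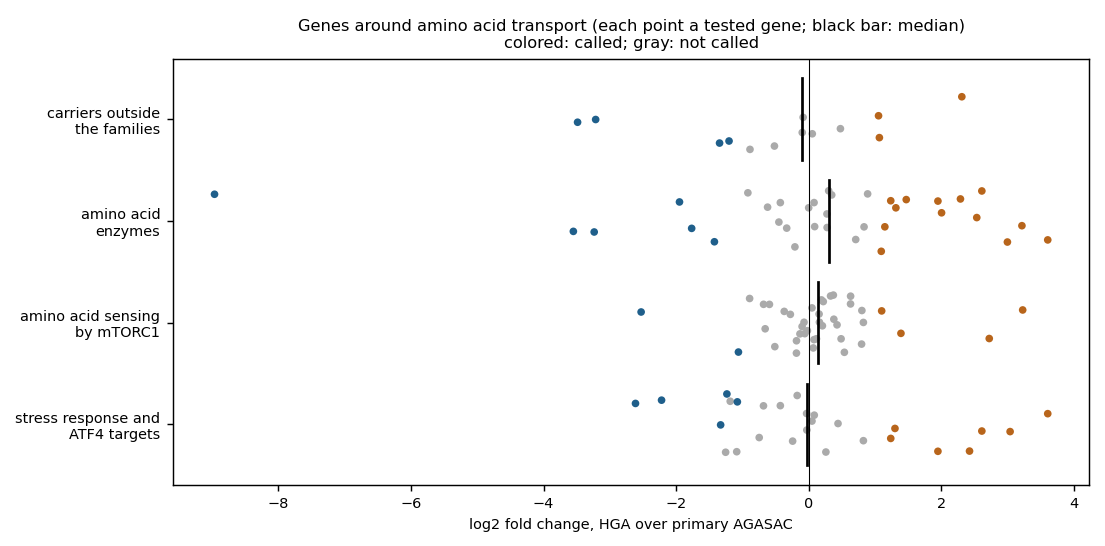
Log2FC of HGA over primary AGASAC (x axis) of the tested genes (points) of 4 lists (y axis), with called genes in orange (higher in HGA) or blue (lower in HGA), the others in gray, and the median as a black bar. Each list has called genes on both sides of 0, and KYNU at −8.96 is the leftmost point.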

How the data were processed

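The authors trimmed reads with Cutadapt, aligned them to CanFam3.1 with STAR, counted them with featureCounts, with multi-mapped reads split evenly, offered the reads left unassigned to a second round in which genes had extended 3′ ends, and deposited raw counts per gene for 25 samples. The deposited table also holds, as a signal, the authors' counts divided by size factors, and the columns of the authors' own comparison by DESeq2 (its log2 fold change, the standard error as a score, and the p-value with its adjusted form), of which none was used. There were 0 unused columns of per-sample values. The counts were filtered by filterByExpr (minimum count 10, minimum total 15), scaled by TMM and tested by the quasi-likelihood test of edgeR 4.0.16 (in R 4.3.3) without covariates, in 10 HGA with 11 primary AGASAC, 4 metastases with AGASAC 1 to 4, their primary tumors, and 10 HGA with the 4 metastases. A gene was called when its p, adjusted by Benjamini-Yekutieli over all tested genes, was at most 0.05 and its log2FC was −1 or lower, or 1 or higher. Each standard error of an edgeR log2FC was worked back from the test, as the absolute log2FC divided by the square root of the F statistic. It was not estimated separately. Levels are CPM with TMM factors over 25 samples, and plots use a pseudocount of 1.

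Per the labels each metastasis belongs to the dog of a numbered primary tumor, and the deviations of such pairs from their group means correlated at 0.450 to 0.743 across genes (4 of 4 dogs). No pair of samples of a group agreed within sampling noise. Extraction batches and read-file names come from the study's supplement. The script was tested on simulated data.

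The genes named are the transporters called in any comparison, both SLC3A and the SLC7A members with a mean of at least 1 CPM, the 6 most abundant that were never called, and of each list of related genes the 2 largest called rises and falls, with exceptions given in the text. The members, lists and tests were chosen with earlier results of these data known. Alternatives were DESeq2 1.42.0, RLE or library size alone, other filters, Benjamini-Hochberg adjustment, no fold threshold, blocks, covariates, subsets and leaving out each sample. Leaving out samples with high marker sums was added after seeing the data. All 54 symbols were found in RefSeq (UU_Cfam_GSD_1.0), which is another assembly than the counts use, so no coordinates are given.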

Additional observations from a re-analysis of the deposited data

Results flagged for a closer look

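Of 49 groups of transporter values tested for a sample far from the others, 3 had one, and chance alone gives about 5 percent of groups. Only the HGA and the metastases of the transporters named by rule were screened. AGASAC was not, nor were transporters named after their values were seen, such as SLC1A1 with 181 CPM in metastasis 4. SLC38A2 had 19.1 CPM in HGA 9, and the next lowest HGA had 47.5 CPM. SLC7A11 had 0 CPM in HGA 10, and the next lowest HGA had 38.0 CPM. SLC43A3 had 126 CPM in metastasis 1, and the next highest metastasis had 30.5 CPM, while the primary tumor of the same dog had 98.9 CPM, the highest of the AGASAC. The causes were not tested.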

How the results depend on the processing

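No called transporter reversed its direction in any alternative. The count of 12 called between HGA and primary AGASAC fell to 4 with at least 10 counts in every sample, where 10 transporters were tested, to 2, 3 and 2 within extraction batches 5, 6 and 8, and to 6 in neutered dogs, which hold fewer samples. In the other alternatives it ranged from 9 to 17, and from 9 to 13 when a sample was left out. DESeq2 gave 17, of which 11 were among the 12. The count of 9 against the metastases rose to 16 with Benjamini-Hochberg adjustment and was 7 to 10 when a sample was left out. Within dogs it stayed at 0 in every alternative, the block by dog included. Samples of HGA, AGASAC and metastases with the same number share only that number where they are of different dogs (correlations of −0.05 to 0.03 and −0.09 to 0.05), and with the number as a block 10 and 6 transporters were called. Library size alone moved the median log2FC of all genes from −0.03 to −0.33 and, against the metastases, from 0.02 to −0.26. Counts of called genes in the 4 related lists went from 12, 6, 19 and 7 to 2, 0, 3 and 1 in extraction batch 5. Transporters under the filter could be missed at this depth, and a transporter that was not called has no direction here.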
